A study of Mus musculus with 26 samples.

Results

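Glutathione and the enzymes around it form the main thiol defence of the cell. The tripeptide is built from glutamate, cysteine and glycine, is used by glutathione peroxidases to reduce peroxides and by glutathione S-transferases (GSTs) to tag reactive compounds for export, and is brought back to its reduced form with NADPH. Peroxiredoxins and thioredoxins run a parallel peroxide-reducing chain, superoxide dismutases turn superoxide into peroxide, and many of these genes are induced by the transcription factor NRF2 (gene *Nfe2l2*) when its inhibitor KEAP1 lets it go. In the small intestine, the same enzymes also handle electrophiles and lipid peroxides that arrive with food. The 56 genes described here were chosen by symbol: the numbered GSTs of the alpha, kappa, mu, omega, pi, theta and zeta classes, Gpx, Prdx and Sod genes, and 17 named genes of glutathione synthesis, the thioredoxin system and NRF2. All 56 were among the 55487 mouse genes of the count table.

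The libraries came from whole pieces of proximal small intestine, cut just below the stomach, and were read by 3′-end RNA sequencing. Knockout mice (tamIEC-KO) carry a floxed gene (fl/fl) and the tamoxifen-inducible Villin-creERT2 transgene, whose Cre acts in intestinal epithelial cells, so the gene is deleted in epithelium while the muscle, stroma, vessels and immune cells of the piece keep it. Controls were fl/fl littermates without the transgene, and all mice, aged 8 to 12 weeks, had received 5 daily injections of tamoxifen. Tissue was taken 3 days (7 knockout and 7 control mice) or 7 days (6 and 6) after the last injection. Library totals lay between 3720168 and 6338016 counts, and levels are given as CPM, the count scaled in the usual way to its library's total. Levels are compared between groups and not between genes.

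Some libraries stood apart in the other tissues they held. The summed level of 9 stomach transcripts was 10482 CPM in knockout replicate 1 and 25960 CPM in control replicate 5 at 3 days, 12033 CPM in control replicate 2 at 7 days, 2898 CPM in control replicate 7 at 3 days, and at most 97.4 CPM in the remaining 22 libraries. The 2 highest of the 3-day libraries also had the lowest sums over 14 proximal enterocyte markers, 754 and 997 CPM, where the other 3-day libraries had 2156 to 13199 CPM. The count of members called at 3 days is therefore also given without these 2 libraries. Other values at 3 days use all mice unless stated. At 7 days, 12 of 14 enterocyte markers and 10 of 11 crypt and proliferation markers were lower in knockout mice. The enterocyte sum was 4079 to 6370 CPM there against 13410 to 25349 CPM in controls, the fibroblast and endothelium sum was 1016 to 1975 against 872 to 1409 CPM with 5 of 9 markers higher, and the immune sum was 267 to 514 against 576 to 1346 CPM with 3 of 11 markers higher and 4 lower. In a whole piece, fewer cells of a type and less RNA per cell cannot be told apart, and the part of these shifts in the levels of the 56 genes was not tested.

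Promoter windows of 300 bases, from 250 bases before to 50 bases after the start site, were available from RefSeq (GRCm38.p6) for 49 of the 56 genes. They were searched on both strands for TGACNNNGC, the core of the antioxidant response element to which NRF2 binds. The first 4 letters are shared with AP-1 sites (TGACTCA), so the letters alone do not tell the motifs apart. A match was found in 10 of the 49 genes (20.4%) and in 14% of all 27025 genes with a window. By the result at 7 days, 5 of the 22 genes with a window that were higher in knockout mice held a match (22.7%), 2 of the 10 that were lower (20%) and 3 of the 14 that did not pass the test (21.4%). The 4 windows shown are those of *Gsta2*, the gene with the largest rise, which has no match, of *Gsta3* and *G6pdx*, which rose and have one, and of *Nfe2l2* itself, which fell and has one. Capitals mark the match, which *G6pdx* carries on the opposite strand.
Gsta2, chr9:78347096-78347395, minus strand: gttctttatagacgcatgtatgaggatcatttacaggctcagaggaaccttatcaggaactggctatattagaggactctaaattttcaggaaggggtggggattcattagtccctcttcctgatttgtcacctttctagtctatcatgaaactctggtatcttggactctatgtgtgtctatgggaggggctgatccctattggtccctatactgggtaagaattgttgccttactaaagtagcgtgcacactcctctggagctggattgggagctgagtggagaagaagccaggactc
Gsta3, chr1:21240335-21240634, plus strand: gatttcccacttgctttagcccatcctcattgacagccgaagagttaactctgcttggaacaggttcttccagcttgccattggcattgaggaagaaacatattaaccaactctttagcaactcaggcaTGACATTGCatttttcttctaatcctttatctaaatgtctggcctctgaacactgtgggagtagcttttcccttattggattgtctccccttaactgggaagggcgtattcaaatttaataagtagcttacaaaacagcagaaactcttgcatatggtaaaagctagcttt
G6pdx, chrX:74428831-74429130, minus strand: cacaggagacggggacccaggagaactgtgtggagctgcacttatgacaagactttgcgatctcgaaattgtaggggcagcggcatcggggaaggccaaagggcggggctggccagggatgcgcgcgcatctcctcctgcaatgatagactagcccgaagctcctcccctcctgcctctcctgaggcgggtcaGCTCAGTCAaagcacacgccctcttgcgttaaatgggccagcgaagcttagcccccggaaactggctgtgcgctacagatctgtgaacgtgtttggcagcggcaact
Nfe2l2, chr2:75704614-75704913, minus strand: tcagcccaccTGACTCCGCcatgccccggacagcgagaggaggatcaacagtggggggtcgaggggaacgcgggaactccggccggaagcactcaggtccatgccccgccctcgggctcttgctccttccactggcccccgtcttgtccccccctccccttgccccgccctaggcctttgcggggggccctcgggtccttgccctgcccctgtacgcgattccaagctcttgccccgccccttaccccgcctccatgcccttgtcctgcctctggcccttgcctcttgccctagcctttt
In these windows, the first base of the match lies 121 bases before the start site in *Gsta3*, 57 in *G6pdx* and 240 in *Nfe2l2*. The windows of *Gclm*, *Gstm5*, *Gstm7*, *Prdx1*, *Sod1*, *Srxn1* and *Txnrd1* also held a match. TGATGNAA, a form of the C/EBP-ATF element bound by ATF4 with a C/EBP partner, was in none of the 49 genes and in 4.51% of all genes. A match describes the letters of a window and says nothing about binding. A window without a match says nothing about sequence outside it.

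At 7 days after the last injection the antioxidant genes divided into a larger group that rose and a smaller one that fell. By edgeR's quasi-likelihood test with Benjamini-Hochberg adjustment over all 20259 genes tested, 26 of the 53 members tested were higher and 11 were lower in knockout mice, or 69.8%, where 38.5% of all genes were called (19.7% higher and 18.8% lower). With a stricter filter on counts (edgeR's filterByExpr), 52.5% of the 14178 genes kept were called, and 36 members were called in both fits. The median log2 fold change was 0.46 over the members and -0.02 over all genes. In 28 of the 53 (52.8%) the knockout and control mice did not overlap in CPM, 22 with every knockout mouse above and 6 with every knockout mouse below the controls. The share of such genes over the whole table was 22.6% (11% higher and 11.6% lower). GSTs of the alpha class, *Gclc*, *Gss*, *Hmox1* and *Nqo1* were among those that rose, while the theta GSTs, *Gpx1*, *Txn1*, *Nfe2l2* and *Keap1* fell. *Gpx5* and *Gpx6* had no count in any library and *Gstt4* was left out as too low.

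**Figure D1:**
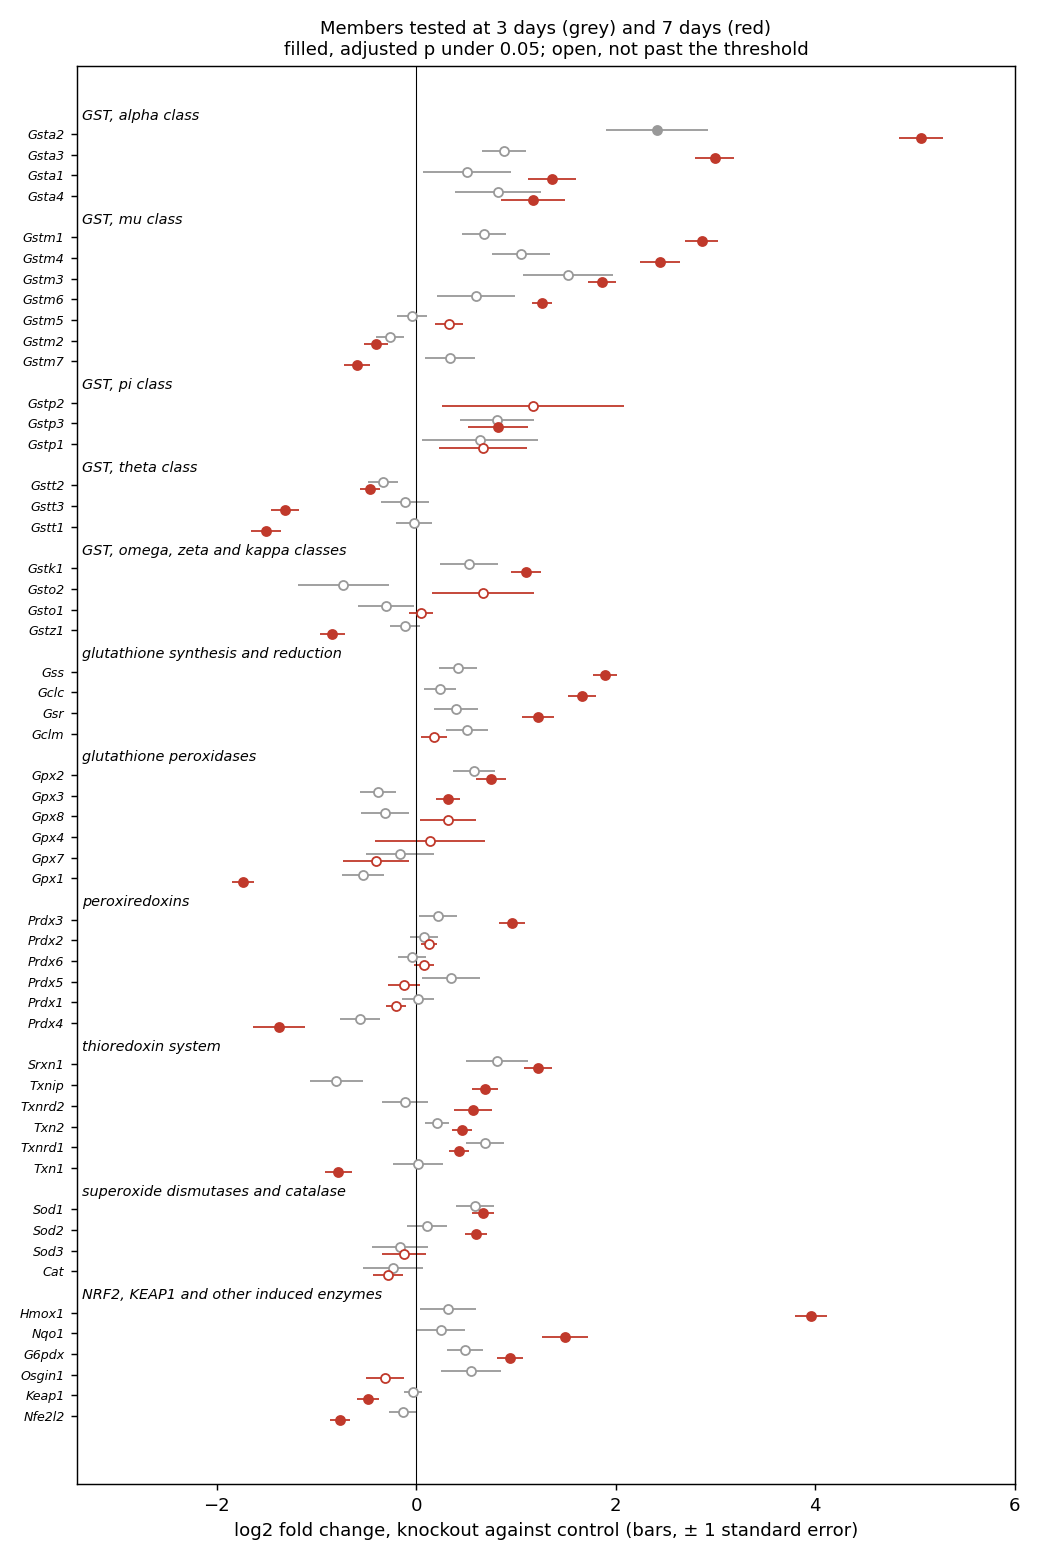
Log2 fold change of knockout against control mice for each member tested (x axis; bars, 1 standard error), grouped by role, at 3 days (grey) and 7 days (red); filled points had an adjusted p under 0.05. At 3 days *Gsta2* alone is filled, and at 7 days 26 members are filled to the right of 0 and 11 to the left.

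All 4 alpha-class GSTs, which conjugate glutathione to electrophiles and reduce lipid hydroperoxides, were higher at 7 days. *Gsta2* was at 0.684 CPM in the lowest, 2.25 in the median and 3.39 in the highest control mouse, and at 51, 76.1 and 97.4 CPM in knockout mice. Every knockout mouse was thus far above every control, with a log2 fold change of 5.06 ± 0.22 (± SE, adjusted p = 4.7e-12). Controls had at most 20 counts of *Gsta2* at 7 days, so the size of that change is uncertain. From here on, 3 CPM values stand for the lowest, median and highest mouse of a group, controls first, and the values in brackets are the log2 fold change of knockout against control with its SE. *Gsta3* rose from 6.84, 10 and 20.8 CPM in controls to 70.3, 88.2 and 119 CPM in knockout mice, again without overlap (2.99 ± 0.20, adjusted p = 9.7e-10). *Gsta1* was at 5.99, 13.6 and 20.8 CPM against 21, 30.5 and 49.9 CPM, groups that nearly touched (1.36 ± 0.24, adjusted p = 0.00014). For *Gsta4*, whose product is active on 4-hydroxynonenal, a product of lipid peroxidation, the mean was 190 ± 107 CPM in controls and 413 ± 171 CPM in knockout mice (SD, n = 6 each) and the groups overlapped (1.17 ± 0.32, adjusted p = 0.0078). *Gsta1*, *Gsta2* and *Gsta4* lie close together on chromosome 9 (GRCm38, 78182774 to 78355788) and *Gsta3* on chromosome 1 (21240589 to 21265661). The last 300 transcript bases of *Gsta2* match those of *Gsta1*, *Gm10639* and *Gm3776* at 97.3% to 97.7%, and those of *Gsta1* match *Gm3776* at 99.7%. Reads could thus be split among these genes or left out for low mapping quality.

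The mu class was mixed: 4 of its 7 genes were higher, 2 were lower and *Gstm5* did not pass the test (0.33 ± 0.14, adjusted p = 0.081). *Gstm1* was at 110, 215 and 274 CPM in the lowest, median and highest control mouse and at 1317, 1506 and 1707 CPM in knockout mice. This separation corresponded to a log2 fold change of 2.86 ± 0.17 (adjusted p = 2.7e-10). *Gstm3* went from 175, 229 and 359 to 798, 858 and 929 CPM, with the knockout mice close together and above all controls (1.86 ± 0.14, adjusted p = 4.9e-09). *Gstm6* went from 32.5, 37.8 and 43.9 to 75, 92.9 and 96.1 CPM (1.26 ± 0.10, adjusted p = 1.4e-08), also apart. *Gstm4*, at a mean of 32.4 ± 13.1 CPM in controls and 171 ± 13.2 CPM in knockout mice (SD, n = 6 each), did not overlap either (2.44 ± 0.20, adjusted p = 1.6e-08). *Gstm2* and *Gstm7* moved the other way, by -0.40 ± 0.12 (adjusted p = 0.012) and -0.59 ± 0.13 (adjusted p = 0.0012), with overlapping groups. The 7 genes form 1 cluster on chromosome 3 between 107895821 and 108044894. Along it, *Gstm2* lies between *Gstm3* and *Gstm1*, and *Gstm7* next to *Gstm6*, so the genes that fell do not lie side by side.

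All 3 theta-class genes tested fell. *Gstt1*, an enzyme that conjugates small halogenated compounds, was at 39.3, 70.4 and 83.1 CPM in control and at 18.2, 23.7 and 26.5 CPM in knockout mice, with no overlap (-1.51 ± 0.15, adjusted p = 2e-07). *Gstt3* was at 51.8, 67.4 and 81.4 CPM against 17.8, 28.4 and 31.1 CPM, also apart (-1.32 ± 0.14, adjusted p = 4.6e-07). Its 3′ end is shared with the overlapping gene *Gm20441*. *Gstt2* went from 24.5, 31 and 34.2 to 18.6, 21.5 and 24.5 CPM, where the highest knockout mouse reached the lowest control (-0.46 ± 0.10, adjusted p = 0.00099). These genes are neighbours on chromosome 10 between 75774115 and 75837424. In the other classes, *Gstk1*, a GST of mitochondria and peroxisomes, rose from 44.3, 67.3 and 94.4 to 123, 148 and 172 CPM (1.10 ± 0.15, adjusted p = 1.1e-05), without overlap. *Gstz1*, which acts as maleylacetoacetate isomerase in tyrosine breakdown, was at 35.1, 43.4 and 58.7 CPM against 21.6, 23.8 and 28.4 CPM and so fell without overlap (-0.84 ± 0.13, adjusted p = 3.6e-05). *Gsto1* was at 807 ± 162 CPM in control and 820 ± 95.4 CPM in knockout mice (SD, n = 6 each), with a log2 fold change of 0.05 ± 0.12 (adjusted p = 0.78), and *Gsto2* did not pass either (0.67 ± 0.51, adjusted p = 0.33). The pi class was low, with at most 4.91 CPM in any 7-day library, and its 1 call, *Gstp3* (0.82 ± 0.30, adjusted p = 0.035), was lost when any of 9 of the 12 mice was left out. *Gstp1* (0.67 ± 0.44, adjusted p = 0.25) and *Gstp2* (1.17 ± 0.91, adjusted p = 0.34) did not pass the test. They have identical last 300 bases that match the pseudogene *Gstp-ps* at 97.7% and 99%. Reads could thus be split among the 3 or left out for low mapping quality, so low counts need not mean low expression.

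Of the enzymes that make and recycle glutathione, 3 of 4 rose. *Gclc*, the catalytic subunit of the rate-limiting glutamate-cysteine ligase, was at 73, 96.9 and 120 CPM in control and 261, 292 and 372 CPM in knockout mice. Every knockout mouse was above every control (1.66 ± 0.14, adjusted p = 2e-08). *Gss*, which adds glycine in the last step, went from 28.2, 31.4 and 39.9 to 99.7, 122 and 138 CPM (1.89 ± 0.12, adjusted p = 5.8e-10). Its exons overlap those of *Acss2* on the opposite strand. *Gsr*, which regenerates reduced glutathione, went from 23.9, 31.3 and 51.5 to 65.7, 81 and 89.5 CPM (1.22 ± 0.16, adjusted p = 8.8e-06). The groups overlapped in neither gene. The modifier subunit *Gclm*, by contrast, was at 74.1, 92.5 and 116 CPM in control and 87.8, 100 and 137 CPM in knockout mice, with largely overlapping groups (0.18 ± 0.13, adjusted p = 0.3).

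**Figure D2:**
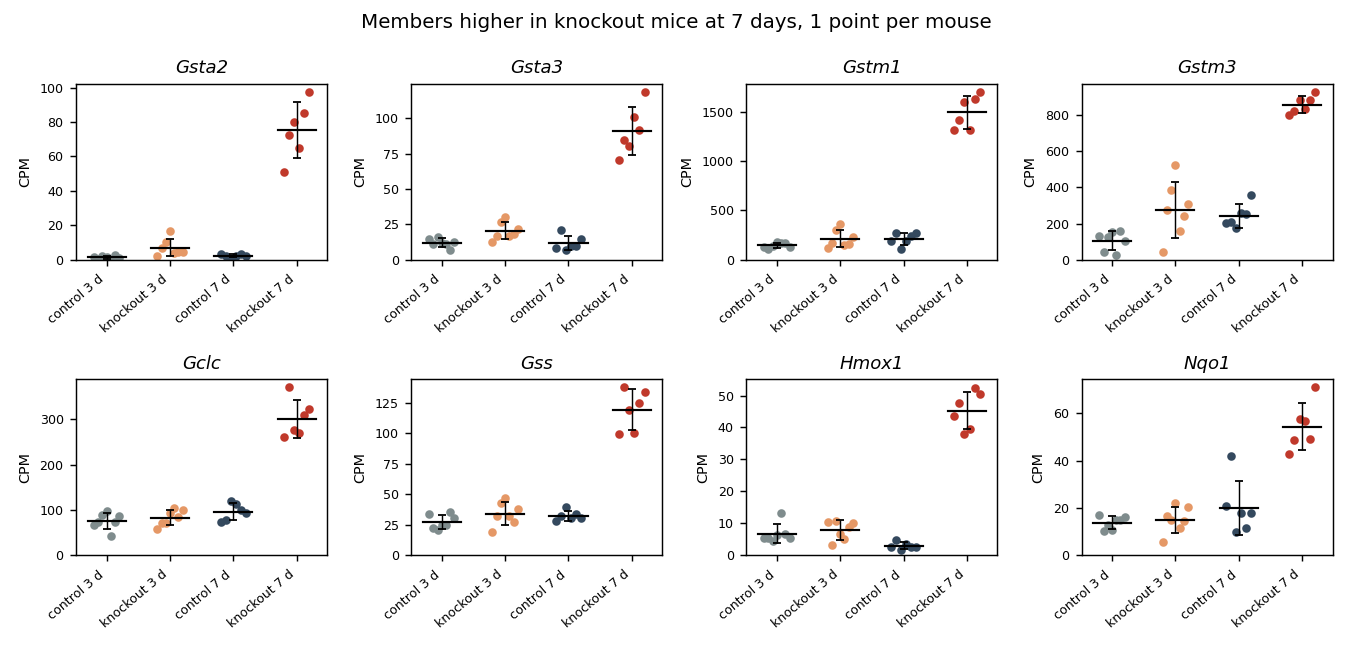
CPM (y axis, from 0) of 8 members that were higher in knockout mice at 7 days, in each mouse of the 4 groups (x axis); horizontal lines are means and error bars 1 SD, with 7 mice a group at 3 days and 6 at 7 days. The 6 knockout mice at 7 days lie above all other mice in all 8 genes, at 51 to 97.4 CPM for *Gsta2* and 38.1 to 52.5 CPM for *Hmox1*.

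Among the peroxide-reducing enzymes, the main glutathione peroxidase of most cells fell. *Gpx1* was at 475, 602 and 719 CPM in control and at 137, 176 and 212 CPM in knockout mice, with no overlap (-1.74 ± 0.11, adjusted p = 6.5e-10). *Gpx2*, the form typical of gut epithelium, was at 80.8, 102 and 130 CPM against 143, 164 and 234 CPM, with every knockout mouse above the controls (0.75 ± 0.15, adjusted p = 0.00052). *Gpx3*, the secreted form, was at 53.3, 69.6 and 75 CPM against 72.9, 73.7 and 115 CPM, and its small difference (0.32 ± 0.12, adjusted p = 0.047) lost the call when any of 9 of the 12 mice was left out. *Gpx4*, which reduces lipid hydroperoxides in membranes, was hardly counted: it had at most 1.9 CPM in any library, and its last 300 bases match *Gpx4-ps2* at 99.7%. *Gpx4-ps2* was at 12 ± 5.34 CPM in control and 16 ± 5.16 CPM in knockout mice at 7 days (SD, n = 6 each). *Gpx7* (-0.40 ± 0.33, adjusted p = 0.37) and *Gpx8* (0.32 ± 0.28, adjusted p = 0.41), forms of the endoplasmic reticulum, did not pass the test. Of the peroxiredoxins, *Prdx3*, the mitochondrial one, rose from 10.4, 17.1 and 19.1 to 24.7, 31.7 and 34.6 CPM (0.96 ± 0.13, adjusted p = 8.9e-06), without overlap. *Prdx4*, which works in the endoplasmic reticulum, fell from 5.01, 10.7 and 13.2 to 2.38, 3.18 and 6.7 CPM, with some overlap (-1.38 ± 0.26, adjusted p = 0.00032). *Prdx1* (-0.20 ± 0.10, adjusted p = 0.14), *Prdx2* (0.13 ± 0.08, adjusted p = 0.25), *Prdx5* (-0.12 ± 0.16, adjusted p = 0.62) and *Prdx6* (0.08 ± 0.10, adjusted p = 0.58) did not pass the test.

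The thioredoxin system split between its parts. *Txn1*, cytosolic thioredoxin, was at 630, 745 and 891 CPM in control and 352, 426 and 499 CPM in knockout mice and fell without overlap (-0.78 ± 0.14, adjusted p = 0.00017). Its reductase *Txnrd1* went from 276, 319 and 361 to 369, 434 and 475 CPM (0.43 ± 0.10, adjusted p = 0.0014). *Srxn1*, sulfiredoxin, which repairs overoxidized peroxiredoxins, went from 106, 130 and 160 to 233, 312 and 369 CPM, the largest change of the system (1.22 ± 0.14, adjusted p = 1.3e-06). In *Txnrd1* and *Srxn1* all knockout mice were above the controls. *Txnip*, the thioredoxin-binding inhibitor, was at 194, 237 and 310 CPM against 319, 385 and 463 CPM (0.69 ± 0.13, adjusted p = 0.00034), again with every knockout mouse above. Exons of *Txnip* overlap those of *Gm15441* on the opposite strand, and some of its counts hold fractions of a read. Of the dismutases, *Sod1* went from 427, 509 and 559 to 647, 804 and 871 CPM (0.67 ± 0.11, adjusted p = 8.8e-05). *Sod2*, the mitochondrial form, went from 87.7, 93.6 and 109 to 116, 143 and 160 CPM (0.60 ± 0.11, adjusted p = 0.00021). Neither dismutase overlapped between the groups. The extracellular *Sod3* did not pass the test (-0.12 ± 0.22, adjusted p = 0.72). The 3′ end of *Sod1* matches the pseudogene *Gm8566* at 97.8% over 228 bases. Catalase (*Cat*) was at 66.4, 96.6 and 127 CPM against 61.4, 78.5 and 85.3 CPM (-0.28 ± 0.15, adjusted p = 0.15), a difference that passed the test only without control replicate 2 (adjusted p = 0.042), without control replicate 4 (0.024) or with tissue scores as covariates (0.0099).

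*Txn2*, mitochondrial thioredoxin, was at 119 ± 13.5 CPM in control and 160 ± 16.7 CPM in knockout mice (SD, n = 6 each), with a log2 fold change of 0.46 ± 0.10 (adjusted p = 0.0016). *Txnrd2*, its reductase, was at 8.59 ± 2.8 against 12.5 ± 2.28 CPM (SD), with overlapping groups (0.57 ± 0.19, adjusted p = 0.021), a call that was lost without any of 4 single mice.

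NRF2, its inhibitor and its best-known targets did not move together. *Nfe2l2* was at 427, 496 and 610 CPM in control and at 280, 301 and 310 CPM in knockout mice, with no overlap (-0.76 ± 0.10, adjusted p = 5.4e-06). *Keap1* was at 64.7, 76.6 and 92.8 CPM against 46.7, 54.1 and 69.5 CPM (-0.48 ± 0.11, adjusted p = 0.0016), with 1 knockout mouse inside the control range. Both messages were thus lower while several target genes rose. *Hmox1*, which breaks down haem, went from 1.71, 2.7 and 4.78 to 38.1, 45.5 and 52.5 CPM, with no overlap and the second-largest log2 fold change of the members (3.96 ± 0.16, adjusted p = 1.6e-12). Its controls had at most 22 counts at 7 days, so the size of this change is uncertain too. *Nqo1*, a quinone reductase, went from 9.92, 18 and 41.9 to 42.8, 53.1 and 71.1 CPM (1.49 ± 0.23, adjusted p = 4.8e-05). The highest control, replicate 2, is the library rich in stomach transcripts, and without it the value was 1.79 ± 0.17 (adjusted p = 9.3e-08). *G6pdx*, the entry enzyme of the pentose phosphate pathway and a source of NADPH, went from 18.3, 24.4 and 32.8 to 43.3, 44.9 and 58 CPM (0.94 ± 0.13, adjusted p = 9.2e-06). In both *Nqo1* and *G6pdx* all knockout mice were above the controls. *Osgin1*, an NRF2 target, was at 14.9 ± 4.14 CPM in control and 11.8 ± 1.89 CPM in knockout mice (SD, n = 6 each), with a log2 fold change of -0.31 ± 0.19 (adjusted p = 0.21).

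**Figure D3:**
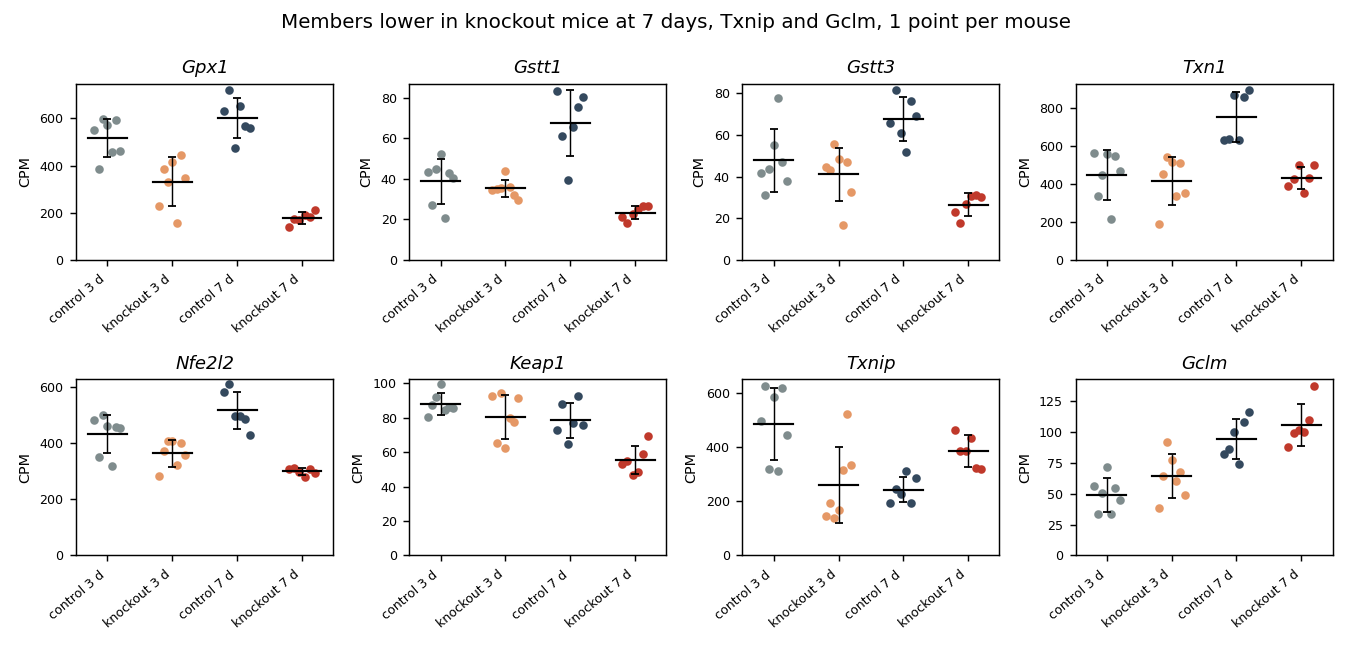
CPM (y axis, from 0) of 6 members that were lower in knockout mice at 7 days and of *Txnip* and *Gclm*, in each mouse of the 4 groups (x axis); horizontal lines are means and error bars 1 SD. For *Gpx1* the 7-day knockout mice lie at 137 to 212 CPM and the controls at 475 to 719 CPM, whereas the mean of *Txnip* is lower in knockout mice at 3 days and every knockout mouse is above the controls at 7 days, and *Gclm* overlaps between genotypes on both days.

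At 3 days the difference was small. *Gsta2* was the 1 member called of 51 tested (1.96%), beside 1.43% of all 20760 genes (1.11% higher and 0.323% lower). It was at 0, 1.6 and 2.7 CPM in the lowest, median and highest control mouse and at 2.1, 4.72 and 16.5 CPM in knockout mice. The ranges overlapped slightly, and the log2 fold change was 2.41 ± 0.51 (edgeR, adjusted p = 0.024). Controls had at most 13 counts of *Gsta2* on this day, so the size of that change is uncertain. In none of the 51 did the groups separate fully, where 0.848% of all genes did (0.356% higher and 0.491% lower in every knockout mouse). Without adjustment, 18 of the 51 had a p under 0.05, beside 13.6% of all genes, and the median log2 fold change was 0.22 over the members and -0.03 over all genes. *Gsta3* was at 6.86, 12.1 and 16.1 CPM against 12.8, 18.3 and 30.5 CPM (0.88 ± 0.22, adjusted p = 0.051). *Gstm3* was at 26.9, 125 and 158 CPM against 41.6, 276 and 526 CPM (1.52 ± 0.45, adjusted p = 0.12), and *Txnrd1* at 128, 235 and 266 CPM against 196, 321 and 460 CPM (0.69 ± 0.19, adjusted p = 0.087). *Gclc* (0.24 ± 0.16, adjusted p = 0.57), *Hmox1* (0.32 ± 0.28, adjusted p = 0.67) and *Nqo1* (0.25 ± 0.24, adjusted p = 0.72) had small differences within the spread between mice. Besides *Gpx5*, *Gpx6* and *Gstt4*, *Gpx4* and *Gstp2* were too low to test on this day.

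The count at 3 days turned on single libraries. Without knockout replicate 1, the stomach-rich library with few enterocyte transcripts, 8 members were called, all higher: *Gsta2*, *Gsta3*, *Gstm1*, *Gstm3*, *Gstm4*, *Sod1*, *Srxn1* and *Txnrd1*. Over the whole table the calls then rose too, to 3.71% of all genes. Without that library and control replicate 5 together, 7 were called, those 8 less *Srxn1*, at 0.68 (*Sod1*) to 2.39 (*Gsta2*), where 3.63% of all genes were called. No member was called without knockout replicate 3 or 4 or without control replicate 2, 4 or 7, with *Gsta2* then at an adjusted p of 0.051 to 0.059. In these fits 0.811% to 0.955% of all genes were called. The DESeq2 Wald test called 5 members: *Gsta2*, *Gsta3*, *Gstm3*, *Gstm4* and *Txnrd1*, and 3.7% of all genes.

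Of the 26 members higher at 7 days, 23 already had a positive log2 fold change at 3 days (88.5%), with a median of 0.52. The exceptions were *Gpx3*, *Txnip* and *Txnrd2*. Over all genes higher at 7 days the same share was 74.5% and the median at 3 days was 0.18. Of the 11 that were lower, 9 were negative at 3 days (81.8%, beside 66.7% over all genes lower at 7 days), and *Gstm7* and *Txn1* were not. The median of these 11 at 3 days was only -0.11, beside -0.13 over all genes lower at 7 days. The days are different mice, so the shares do not rest on shared controls.

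The difference between the days was tested as the interaction of genotype and day over all 26 libraries. It passed in 19 of 51 members, or 37.3% beside 18.4% of all genes (8.64% higher and 9.74% lower). In 12 the log2 fold change of knockout against control was higher at 7 days than at 3 days, and in 7 it was lower. A shift also holds the change in controls: mean *Gpx3* went from 118 to 82.6 CPM in knockout and from 164 to 67.6 CPM in control mice. With the stricter count filter filterByExpr, 23.9% of 15897 genes passed, and 19 members passed in both fits. *Hmox1* had the largest shift, 3.64 ± 0.35 (adjusted p = 1.6e-08), followed by *Gsta2* (2.68 ± 0.62, adjusted p = 0.0024), *Gstm1* (2.21 ± 0.31, adjusted p = 5.6e-06) and *Gsta3* (2.13 ± 0.31, adjusted p = 1.1e-05). *Gclc*, *Gss*, *Gsr*, *Gstm4*, *Nqo1*, *Prdx3*, *Txnip* and *Gpx3* also shifted upward. *Gstt1* (-1.47 ± 0.24, adjusted p = 6.3e-05), *Gstt3*, *Gpx1* (-1.19 ± 0.25, adjusted p = 0.00091), *Gstm7*, *Gstz1*, *Nfe2l2* and *Keap1* shifted downward. *Txnip* changed its side: at 3 days it was at 311, 497 and 624 CPM in control and 139, 194 and 521 CPM in knockout mice (-0.80 ± 0.27, adjusted p = 0.18), at 7 days it was higher, and the interaction was 1.51 ± 0.33 (adjusted p = 0.0015). *Gstm3*, *Txnrd1*, *Srxn1*, *Sod1* and *Gpx2* gave interactions between -0.24 and 0.43 that did not pass.

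Many members also differed between the days in control mice. Of 52 members tested, 31 were higher and 5 lower in 7-day than in 3-day controls (69.2%, beside 36% of all genes, 19.7% higher and 16.3% lower), with a median of 0.73 against -0.06. With filterByExpr, 48.8% of the 14889 genes kept were called, and 34 members were called in both fits. *Srxn1* and *Osgin1* were both 1.74 higher on the log2 scale, *Gstm3* 1.56 and *Prdx5* 1.54, while *Gpx8*, *Gpx3*, *Hmox1*, *Sod3* and *Txnip* were lower. All 14 enterocyte markers were higher, and all 7 smooth muscle and 9 fibroblast and endothelium markers lower, in the 7-day controls. The labels give no batch, so time after tamoxifen, the tissue piece and any batch cannot be told apart between the days.

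The genes around the members were read from 9 lists with 104 genes. At 7 days 45 were higher and 24 lower, with a median of 0.29, and at 3 days 8 were higher and 1 lower. The shares over all genes, given beside these counts and those of each list, were 19.7% higher and 18.8% lower at 7 days and 1.11% and 0.323% at 3 days. The lists were chosen with earlier results of these data known, so the shares serve as a description and not as a test. The largest change of a named gene was in the supply of cysteine. *Slc7a11*, the cystine importer of the xCT antiporter, was at 0, 0.612 and 1.71 CPM in control and 526, 619 and 770 CPM in knockout mice at 7 days (9.79 ± 0.34, adjusted p = 3.3e-13), and at 0.265, 1.12 and 3.73 against 7.36, 28.5 and 51.7 CPM at 3 days (4.22 ± 0.47, adjusted p = 8.7e-05). The groups did not overlap on either day, and because controls had at most 10 counts at 7 days, the size of that fold change is uncertain. *Cth*, which makes cysteine from cystathionine, was higher on both days (1.88 ± 0.28 and 1.05 ± 0.12, adjusted p = 0.0015 and 9e-07), and *Slc1a1*, an importer of glutamate and cysteine, was lower at 7 days (-3.09 ± 0.26, adjusted p = 2.2e-08).

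Glutathione breakdown went in both directions, with 3 of 12 genes higher and 6 lower at 7 days. *Chac1*, a cytosolic enzyme that cleaves glutathione, was at 23.9 ± 2.89 CPM in knockout and 0.728 ± 0.476 CPM in control mice (SD, n = 6 each), with a log2 fold change of 4.97 ± 0.25 (adjusted p = 2.3e-11) and was called at 3 days too (3.39, adjusted p = 0.0017). Controls had at most 9 counts of *Chac1* at 7 days, so the size of its fold change on that day is uncertain. *Oplah*, which opens 5-oxoproline, was higher (2.08 ± 0.15). The brush-border peptidases *Dpep1* (-3.67 ± 0.23) and *Anpep* (-3.48 ± 0.23), which work at the end of extracellular glutathione breakdown, were lower. So were most proximal enterocyte markers, a list that includes *Anpep* itself. Among microsomal GSTs and other glutathione enzymes, 7 of 14 were higher and 6 lower. *Mgst1* and *Mgst2* fell by 2.29 and 2.74 on the log2 scale, and *Esd* and *Hpgds* were 1.74 and 1.46 higher. In export and import, 5 of 6 were higher, among them *Abcc2*, which exports glutathione conjugates (1521 ± 171 CPM in knockout and 466 ± 69.3 CPM in control mice, SD, with a log2 fold change of 1.73 ± 0.12, adjusted p = 1.8e-09), and *Slc25a39*, the carrier of glutathione into mitochondria (1.53 ± 0.11, adjusted p = 1.7e-09).

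NADPH supply had 10 of 17 genes higher and 5 lower. The mitochondrial folate enzymes *Aldh1l2* (5.13 ± 0.19, adjusted p = 6.2e-13) and *Mthfd2* (3.04 ± 0.15, adjusted p = 2.2e-11) were higher, and were called at 3 days as well (2.67 and 2.13). Their cytosolic relative *Aldh1l1* (-2.59 ± 0.16) and mitochondrial malic enzyme *Me2* (-2.64 ± 0.20) were lower. Another malic enzyme, *Me1*, was higher (2.86 ± 0.21, adjusted p = 4.5e-09). Among the partners and relatives of NRF2, 5 of 10 were higher and 1 lower. They included *Sqstm1*, the p62 protein that binds KEAP1 (436 ± 32.8 CPM in knockout and 88.4 ± 6.55 CPM in control mice, SD, with a log2 fold change of 2.32 ± 0.10, adjusted p = 7.4e-12), and *Mafg*, a small MAF partner of NRF2 (1.57 ± 0.12, adjusted p = 5.8e-09), which was called at 3 days as well (0.67, adjusted p = 0.018), while *Rbx1* was lower (-0.39 ± 0.13, adjusted p = 0.027). In iron, haem and quinone handling 5 of 11 were higher and 1 lower, with *Acsl4* (2.98 ± 0.16) and the ferritin light chain *Ftl1* (1.82 ± 0.13) ahead and *Blvra* lower (-0.40 ± 0.14). Of other thiol and methionine repair genes 4 of 13 were higher and 2 lower, with *Sesn2* at 2.06 ± 0.16 and *Sesn1* at -2.37 ± 0.20. Selenium supply and selenoprotein synthesis had the smallest share called, with 3 of 16 higher and 2 lower and a median of -0.05. *Eefsec* (0.76 ± 0.15) and *Selenot* (0.63 ± 0.12) were higher there, and *Scly* (-0.87 ± 0.13) and *Selenoh* (-0.61 ± 0.16) lower.

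**Figure D4:**
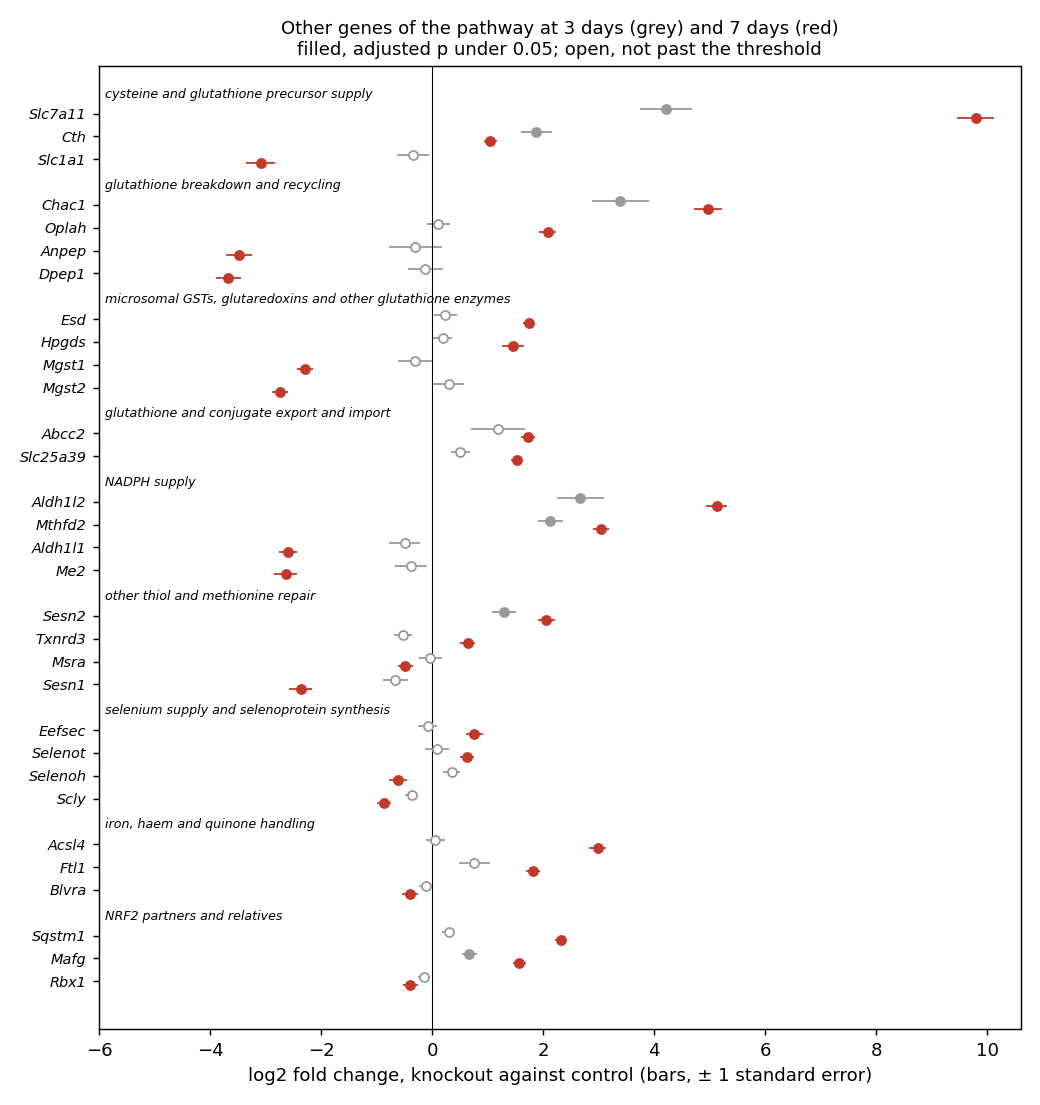
Log2 fold change of knockout against control mice for up to 2 genes per direction of each of the 9 other lists (x axis; bars, 1 standard error) at 3 days (grey) and 7 days (red); filled points had an adjusted p under 0.05. *Slc7a11* stands at 4.22 and 9.79 and *Aldh1l2* at 2.67 and 5.13, while the selenium genes lie between -0.87 and 0.76 at 7 days.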

How the data were processed

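RNA from proximal small intestine of 26 mice was made into Lexogen QuantSeq 3′ libraries. Per the study's methods, the authors trimmed reads with Cutadapt, aligned them to GRCm38 with Subread and counted genes with featureCounts, leaving out reads of low mapping quality and giving overlapping genes fractions of a read. The submitters' processing notes name Cutadapt 2.10 and featureCounts 2.0.1. The strand setting is not given in the sources used here. The deposited values are therefore estimated counts (95% whole), which were rounded before testing. The study's filter was kept: genes at 0 in the majority of a condition's samples were left out. edgeR 4.0.16 (R 4.3.3; TMM, quasi-likelihood F test, Benjamini-Hochberg threshold 0.05) was fitted over all genes to each day, to genotype and day together over 26 libraries for the interaction, and to controls across days. The SE was taken as the absolute fitted value over the root of its F statistic. CPM used unrounded counts and library totals without TMM. The fits were tested on simulated data. Mice are the replicates, and no 2 libraries were identical. DESeq2 1.42.0, other filters and scalings, tissue scores as covariates and each mouse left out were alternatives. The labels do not say that replicate numbers mark pairs, and the main tests treated mice as unpaired. The targeted gene is not reported here.

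Members, lists and tests were chosen with earlier results of these data known. Values per mouse are given for members called at 3 days, for up to 3 per role with the smallest adjusted p at 7 days and a mean of at least 20 counts, and for 15 named members. From each of the 9 lists, up to 2 genes per direction are named by the same measure, and *Me1* is added beside *Me2*. *Gclc*, *Gsr*, *Gsta4*, *Gstt2*, *Hmox1*, *Prdx6* and *Sod3* were not matched in the promoter table. *Dpep2* and *Nnt*, each with 2 entries in the count table, were left out of the lists. The 3′ similarity used transcripts of the GENCODE annotation of GRCm38, with alignments of at least 75 bases at 95% identity. A deposited CPM table, which equals the counts over their totals, was not used.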

Additional observations from a re-analysis of the deposited data

Results flagged for a closer look

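In 9 of 132 groups of a member, 1 mouse lay farther from the others than Dixon's test allows at 95%; chance alone gives about 1 in 20 groups, here 6.6. At 7 days these were knockout replicate 3 for *G6pdx* (58 CPM, next 48.1), knockout replicate 4 for *Gpx3* (115 CPM, next 87.6), for *Gstm6* (75 CPM, the lowest, next 88.7) and for *Prdx4* (6.7 CPM, next 3.96), and control replicate 2 for *Nqo1* (41.9 CPM, next 20.8). At 3 days these were control replicate 4 for *Gpx4* (1.42 CPM, next 0.398), control replicate 3 for *Gsta1* (17.9 CPM, next 8.16), control replicate 5 for *Hmox1* (13.4 CPM, next 6.65) and knockout replicate 1 for *Sod2* (39.3 CPM, the lowest, next 76.8). Knockout replicate 1 and control replicate 5 at 3 days and control replicate 2 at 7 days are the libraries with the highest stomach sums, and knockout replicate 4 at 7 days had 22784 CPM of pancreatic acinar transcripts.

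The genotype effect differed between the days by edgeR's test of the interaction (log2 fold change at 7 days minus that at 3 days). Upward shifts were 3.64 for *Hmox1*, 2.68 for *Gsta2*, 2.21 for *Gstm1*, 2.13 for *Gsta3*, 1.51 for *Txnip*, 1.49 for *Gss*, 1.44 for *Gclc*, 1.42 for *Gstm4*, 1.27 for *Nqo1*, 0.84 for *Gsr*, 0.76 for *Prdx3* and 0.72 for *Gpx3*. Downward shifts were -1.47 for *Gstt1*, -1.20 for *Gstt3*, -1.19 for *Gpx1*, -0.91 for *Gstm7*, -0.71 for *Gstz1*, -0.61 for *Nfe2l2* and -0.43 for *Keap1*. The shift of *Gsr* (adjusted p = 0.044) was lost without any of 18 of the 26 mice, and those of *Gpx3*, *Gstm7*, *Keap1* and *Prdx3* without any of 4 mice each.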

How the results depend on the processing

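At 7 days the count of members called higher was 23 to 27 and that called lower 11 to 14 over every alternative run, the interaction counted 15 to 21 and the controls across days 33 to 36; pathway genes ranged from 43 to 47 higher and 22 to 28 lower at 7 days and from 6 to 12 at 3 days. The 1 member called at 3 days became 5 with DESeq2, 2 with filterByExpr, 7 with all 26 libraries in 1 fit (6 higher and *Txnip* lower, -0.80, adjusted p = 0.047), 0 with tissue scores as covariates and, chosen after seeing the data, 7 without the stomach-rich libraries. The share of all genes called was 1.43% in the test as reported and 3.7%, 2.55%, 3.9%, 1.08% and 3.63% in these. Leaving out single mice gave 0 to 8 members, beside 0.811% to 3.71% of all genes. The cause of these changes was not tested. *Gsta2* at 3 days was 1.99 (adjusted p = 0.053) with the tissue scores. Values near 0 at 3 days changed sign: *Txn1* to -0.23, *Sod2* to -0.10 and *Gstt3* to 0.06 with the tissue scores, and *Gstt3* to 0.07 without the stomach-rich libraries.

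With the replicate number as a block, 0 members were called at 3 days, beside 0.477% of all genes. *Gsta2* was then 2.34 (adjusted p = 0.079), while *Txn1* went to -0.0009 and *Gstt1* to 0.009. At 7 days 26 members were higher and 11 lower, beside 37.3% of all genes called, and 36 members were called in both fits. The numbers share no stated origin, and same-numbered mice correlated at -0.357 to 0.430, with 2 of 7 best matched to their own number at 3 days and 2 of 6 at 7 days, so the block was not read as a pairing. At 7 days *Gpx3* was called under the tissue scores alone among the alternatives that kept all mice, and *Gstp3* lost its call without any of 9 mice. Counts cannot resolve members at a few CPM, such as the pi class and *Gpx4*.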

Other observations

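Genes and pseudogenes whose 3′ ends match those of members were read from the same table. At 7 days *Gstp-ps* was at 39 ± 5.74 CPM in knockout and 13.3 ± 4.26 CPM in control mice (SD, n = 6 each), with no overlap, while its parent genes were near 0. *Gm10639*, which resembles *Gsta2*, was at 7.36 ± 1.93 against 1.32 ± 0.375 CPM and *Gm3776*, which resembles *Gsta1*, at 2.88 ± 0.952 against 0.264 ± 0.303 CPM, likewise without overlap. How reads were divided between these copies and the members, or left out, was not tested.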
